A study of Mus musculus with 73 samples.

Results

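Polycomb repressive complex 2 (PRC2) was followed through the RNA of its subunits in the epiblast and the extraembryonic ectoderm (ExE) of mouse embryos at E6.5, in wild type and after loss of 4 chromatin regulators. The 10 genes were taken by name from a table of 30546 genes: Eed, Ezh1, Ezh2, Suz12, Rbbp4, Jarid2, Aebp2, Mtf2, Phf1 and Phf19. All 10 had a row. They were chosen by name, with earlier results of these data known.

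Wild-type embryos came from both directions of a cross between BDF1 and CAST mice. From a BDF1 mother and a CAST father there were 7 epiblast and 7 ExE libraries, and from a CAST mother and a BDF1 father 4 and 4. The knockout embryos were all BDF1 by CAST: 3 epiblast and 3 ExE libraries for Dnmt1 (the maintenance DNA methyltransferase), 6 and 8 for G9a and Glp together (Ehmt2 and Ehmt1, which methylate histone H3 lysine 9), 6 and 5 for Rnf2 (the ubiquitin ligase of PRC1), and 9 and 10 for Eed. Each knockout was made by injecting Cas9 mRNA with guides against several exons of the gene into zygotes obtained by sperm injection of BDF1 oocytes, and the blastocysts were carried by CD-1 females. An injected embryo is a founder, so each library could hold its own set of edited alleles, and no line was bred. The reverse cross was made by natural mating, so the direction of the cross and the mode of fertilisation cannot be told apart. Each library was the RNA of the cells dissected from 1 tissue of 1 embryo, and in such bulk samples fewer cells of a type and less RNA per cell cannot be told apart.

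PRC2 places methyl groups on lysine 27 of histone H3, a mark of silenced genes. Its core holds a catalytic subunit, Ezh2 or the less active Ezh1, together with Eed, which binds the trimethylated mark, the scaffold Suz12 and the histone binder Rbbp4. One of 2 sets of accessory subunits joins the core: Phf1, Mtf2 and Phf19, the Polycomb-like proteins that bind CpG-rich DNA, make up the form called PRC2.1, whereas Jarid2 and Aebp2 make up PRC2.2, which also reads the ubiquitin mark laid down by PRC1. Embryos without Eed, Ezh2 or Suz12 are known to fail around gastrulation.

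The start sites of 5 subunits that the results below turn on are shown first, because the PRC2 subunits share a feature that the choice by name did not use: most of their promoters are rich in CpG dinucleotides, the substrate of Dnmt1 and the landing site of the Polycomb-like subunits. The sequences are RefSeq windows on GRCm38.p6 from 250 bases before to 50 bases after the start, printed 5′ to 3′ on the strand of the gene, with each CpG in capitals. They lie at chr2:34913927-34914226 on the minus strand for Phf19, chr11:101226414-101226713 on the minus strand for Ezh1, chr13:44730524-44730823 on the plus strand for Jarid2, chr6:47594981-47595280 on the minus strand for Ezh2, and chr11:79992856-79993155 on the plus strand for Suz12.
Phf19: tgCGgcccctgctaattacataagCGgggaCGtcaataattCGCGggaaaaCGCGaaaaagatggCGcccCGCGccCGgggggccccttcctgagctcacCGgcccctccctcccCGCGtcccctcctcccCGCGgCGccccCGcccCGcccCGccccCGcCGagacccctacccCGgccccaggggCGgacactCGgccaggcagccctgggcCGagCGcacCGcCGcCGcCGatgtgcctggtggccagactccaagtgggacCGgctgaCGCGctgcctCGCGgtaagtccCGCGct
Ezh1: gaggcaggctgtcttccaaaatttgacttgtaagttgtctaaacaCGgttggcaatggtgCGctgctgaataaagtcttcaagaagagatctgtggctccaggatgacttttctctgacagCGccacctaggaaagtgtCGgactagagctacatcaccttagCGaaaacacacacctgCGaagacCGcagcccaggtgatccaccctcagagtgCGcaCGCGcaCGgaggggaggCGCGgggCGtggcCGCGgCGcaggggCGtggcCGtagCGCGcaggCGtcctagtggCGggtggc
Jarid2: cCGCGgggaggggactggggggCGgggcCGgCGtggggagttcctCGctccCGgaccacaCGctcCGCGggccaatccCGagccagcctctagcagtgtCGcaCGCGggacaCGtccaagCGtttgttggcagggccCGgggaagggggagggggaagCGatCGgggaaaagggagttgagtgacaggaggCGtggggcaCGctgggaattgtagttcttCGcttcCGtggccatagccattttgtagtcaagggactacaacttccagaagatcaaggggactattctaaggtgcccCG
Ezh2: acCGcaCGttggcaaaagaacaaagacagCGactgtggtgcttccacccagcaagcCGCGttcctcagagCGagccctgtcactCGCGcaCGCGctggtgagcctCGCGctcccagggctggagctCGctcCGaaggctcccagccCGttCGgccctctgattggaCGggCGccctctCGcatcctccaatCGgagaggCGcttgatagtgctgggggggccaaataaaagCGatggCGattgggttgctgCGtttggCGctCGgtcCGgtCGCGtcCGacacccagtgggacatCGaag
Suz12: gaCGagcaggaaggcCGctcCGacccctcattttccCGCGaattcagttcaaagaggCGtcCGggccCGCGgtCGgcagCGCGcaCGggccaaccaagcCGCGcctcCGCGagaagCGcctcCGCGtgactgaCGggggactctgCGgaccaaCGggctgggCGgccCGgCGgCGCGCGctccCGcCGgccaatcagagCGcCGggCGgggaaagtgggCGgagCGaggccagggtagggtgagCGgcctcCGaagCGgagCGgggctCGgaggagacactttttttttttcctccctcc

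All 10 genes matched an entry, with 14 windows among them. The median member window held 23.5 CpG dinucleotides and the median of all 32851 windows held 7. The window of Suz12 held 41, more than 96.5% of all windows, that of Phf19 held 38, that of Ezh2 31, the first of Jarid2 24 and that of Ezh1 23. The Eed window held 17, more than 68.6% of all windows. A second Mtf2 window held 2, and 2 of the 3 Aebp2 windows held 4 each, so alternative starts of these genes were CpG-poor. Searched on both strands for the letters TTTCCCGC, TTTGGCGC, TTTCGCGC and TTTGCCGC, known as binding motifs of the E2F cell-cycle factors, 3 of the 14 windows held a match: those of Ezh2 (TTTGGCGC), Phf19 (TTTCCCGC) and Suz12 (TTTCCCGC). The same letters occurred in 2.26% of all windows and in 5.15% of windows with at least 20 CpG dinucleotides. A match is a run of letters and was not tested as a binding site.

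The table gives, per gene, the reads that cover a polymorphism between BDF1 and CAST, so a level is comparable between libraries for 1 gene and not between genes. Library totals ran from 1141414 to 17653087 reads, with the deepest libraries among those labelled Rnf2. Levels are given as CPM, reads of the gene scaled to the library total (counts-per-million), and differences as log2 values after TMM scaling, with edgeR's quasi-likelihood test and Benjamini-Hochberg adjustment over all genes tested. A gene is called at an adjusted p under 0.05. In the BDF1 by CAST wild type, the 8 ExE markers summed to 576 to 1073 CPM in ExE and 27.1 to 229 CPM in epiblast. The 8 epiblast markers summed to 2902 to 4324 CPM in epiblast and 739 to 1228 CPM in ExE. Single genes could be cleaner, with Elf5 at means of 265 CPM in ExE and 1.29 in epiblast, and Fgf5 at 0.551 and 382 CPM. Of 7 tested ExE markers 6 were called higher in ExE and 0 lower. Of 7 tested epiblast markers 5 were called lower in ExE and 1 higher. Visceral endoderm, the layer that wraps both tissues, was visible in some epiblast libraries: its 9 markers summed to 5.03 to 70.8 CPM in 6 BDF1 by CAST wild-type libraries but to 469.6 in embryo 8, and to 2486 in 1 epiblast library of the reverse cross. That embryo 8 was also the shallowest wild-type epiblast library, at 1311863 reads, and it stood apart in Eed and Jarid2, so results that it decides are given with and without it. Loss of the targeted message was uneven. The mRNA of every targeted gene with a wild-type mean of at least 10 CPM in the tissue reached the second-lowest wild-type library in 6 knockout libraries: 1 ExE library labelled Dnmt1, 2 epiblast libraries labelled G9a-Glp and 3 ExE libraries labelled Rnf2. For the double knockout this read Ehmt1 alone in epiblast, where wild-type Ehmt2 was only 0.396 to 6.27 CPM and its loss could not be seen (1.13 to 5.50 CPM in the libraries labelled G9a-Glp). In ExE both genes were read, and 3 of 8 libraries labelled G9a-Glp reached that level for Ehmt1 (20.8, 21.3 and 26.1 CPM against 17.5) but none for Ehmt2. An edited gene can still give mRNA, so this check does not say whether the protein was lost, and calls that needed these libraries are marked.

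**Figure D1:**
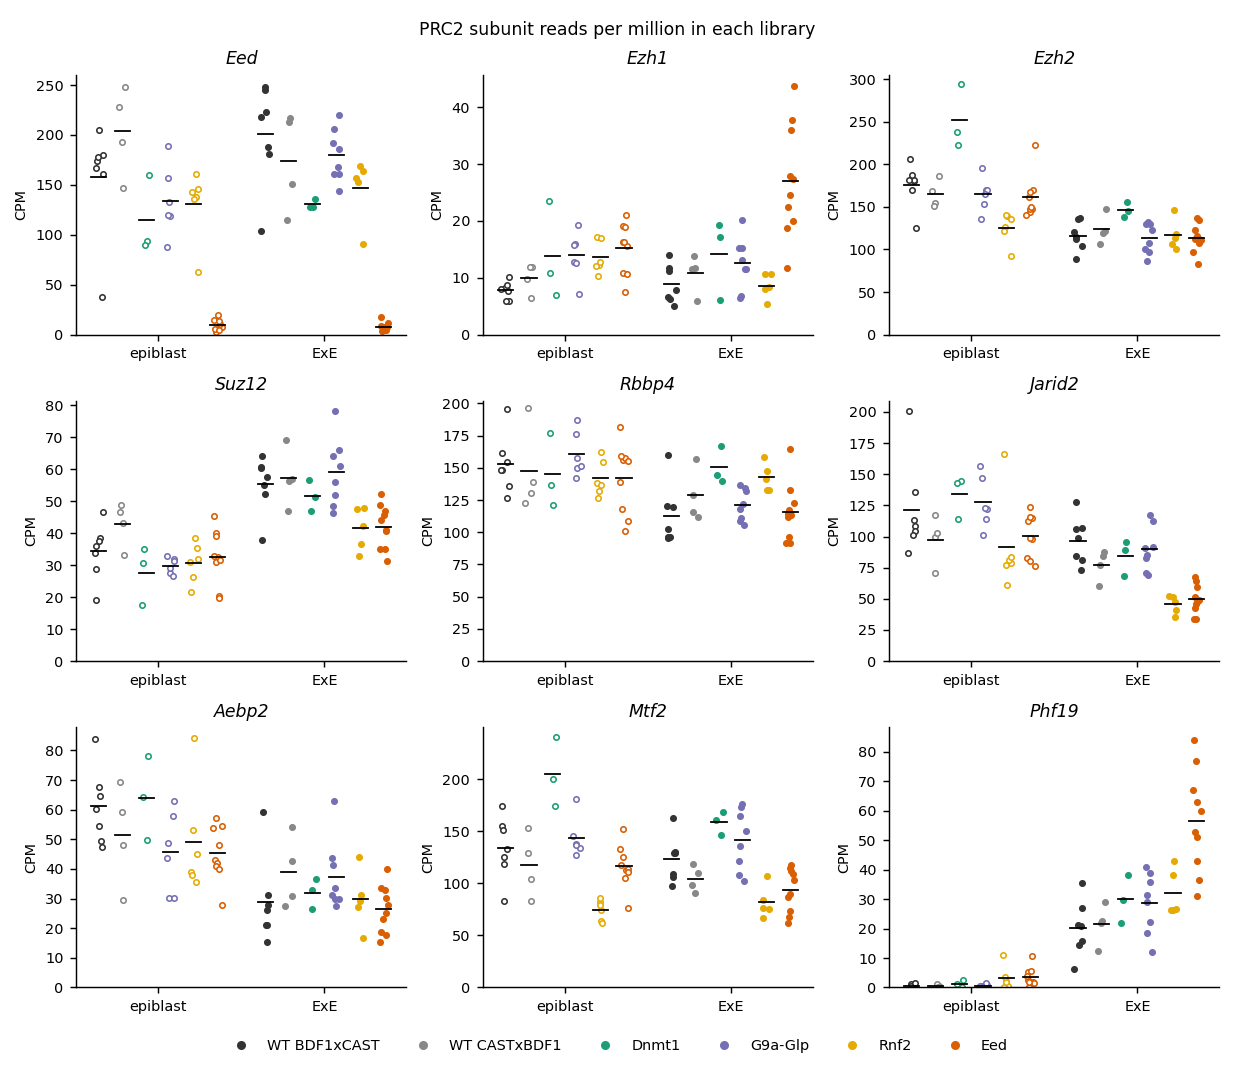
Levels (CPM, vertical axes) of 9 PRC2 subunits in each library, by tissue (horizontal axes, open points epiblast, filled points ExE) and group (colours). A point is 1 library and a bar the group mean; Phf1, with 85 reads in all libraries together, is not drawn. The Eed knockout libraries lie near the floor in the Eed panel and highest in the Ezh1 and Phf19 panels of the ExE, and Phf19 is close to 0 in every wild-type epiblast library.

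The first comparison set ExE against epiblast in the 7 wild-type BDF1 by CAST embryos. Phf19 and Suz12 were higher in ExE, and Ezh2, Rbbp4 and Aebp2 were higher in epiblast. These were 5 of 9 subunits tested, against 56.7% of the 9340 genes tested, so the share that differed was near that of genes at large. The median log2 difference of the 9 was -0.11, and that of all genes -0.02.

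Phf19, a Polycomb-like subunit, separated the tissues most widely. In epiblast its level ran from 0 through a median of 0.363 to 1.52 CPM, a sum of 8 reads over 7 libraries, and in ExE from 6.43 through 20.8 to 35.4 CPM. Every ExE library lay above every epiblast library. A count of 0, found in 2 of the 7 epiblast libraries, allows a level of up to 1.26 CPM in embryo 3 and up to 1.19 in embryo 6, in counting error alone. The fitted difference was 5.26 ± 0.500 (log2, SE), or 38.2-fold with a 95% interval of 19.4 to 75.4, and the adjusted p was 8.11e-08 (edgeR).

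Of the catalytic subunits, Ezh2 was the one that differed. It ran from 126 through a median of 181 to 206 CPM in epiblast and from 89.3 through 114 to 137 CPM in ExE. The ranges overlapped, with 5 of 7 ExE libraries below the lowest epiblast library. The difference was -0.58 ± 0.143 on the log2 scale (edgeR adjusted p = 0.00208). Ezh1 had 7.80 ± 1.53 CPM in epiblast and 8.96 ± 3.36 in ExE (SD, n = 7 each), a log2 difference of 0.21 with an adjusted p of 0.499 (edgeR).

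The core partners moved in different directions. Suz12, the scaffold, ran from 19.1 through 36.0 to 46.5 CPM in epiblast and from 37.9 through 57.4 to 64.0 CPM in ExE, and 6 of 7 ExE libraries lay above the highest epiblast library. Its log2 difference was 0.70 ± 0.180 (edgeR adjusted p = 0.00308). Rbbp4 ran from 126 through 148 to 196 CPM in epiblast and from 95.8 through 103 to 160 CPM in ExE, where 6 of 7 libraries lay below the epiblast range and embryo 6, the highest, lay inside it. The Rbbp4 difference of -0.40 ± 0.135 (edgeR adjusted p = 0.0168) was not called without the filter on low counts (0.107), nor without ExE embryo 2, 3 or 7. Rbbp4 also overlaps the gene Sync, so reads of the 2 genes could be confused where they overlap. Eed had 157 ± 54.5 CPM in epiblast and 201 ± 50.1 in ExE (SD, n = 7 each), not called (log2 0.37, edgeR adjusted p = 0.272).

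Among the accessory subunits of PRC2.2, Aebp2 ran from 47.5 through 60.3 to 83.8 CPM in epiblast and from 15.4 through 26.2 to 59.4 CPM in ExE. All ExE libraries but that of embryo 6 lay below the epiblast range. The difference was -1.04 ± 0.238 on the log2 scale (edgeR adjusted p = 0.00115). Jarid2 (121 ± 37.9 and 96.7 ± 18.7 CPM) and the PRC2.1 subunit Mtf2 (134 ± 29.5 and 123 ± 21.7 CPM) were not called, with log2 differences of -0.28 and -0.10 (edgeR adjusted p = 0.170 and 0.612). Phf1 could not be tested: all 72 libraries together held 85 reads of it, and the 4 epiblast libraries of the reverse cross held none, which allows a level of up to 0.285 CPM over that group.

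In the 4 embryos of the reverse cross, 1 of 9 subunits was called, against 45% of 9767 genes tested. Phf19 had 0.371, 1.14, 0 and 0 CPM in the epiblast of embryos 1 to 4 and 12.2, 22.6, 29.2 and 22.0 CPM in their ExE. The ranges lay far apart, and the log2 difference was 5.67 ± 0.619 (edgeR adjusted p = 1.40e-05), a size that rests on a few epiblast reads. Ezh2 had 155, 151, 186 and 168 CPM in epiblast and 148, 107, 121 and 119 in ExE, so that every ExE library lay below every epiblast library. Its log2 difference of -0.44 had an adjusted p of 0.0596 (edgeR). With the embryo as a block, since both tissues came from the same embryos, the difference was -0.44 and the adjusted p 0.0443 (edgeR). The other members had the same sign as in the first cross except Eed (-0.26, adjusted p = 0.425), and none of them was called: Suz12 differed by 0.40, Aebp2 by -0.41, Jarid2 by -0.34, Rbbp4 by -0.20, Mtf2 by -0.20 and Ezh1 by 0.11 on the log2 scale (edgeR). Set directly against each other, the 2 crosses differed in 0 of 8 subunits in epiblast, where 0.0103% of genes were called, and in 0 of 9 in ExE, where 1.06% were; none had an unadjusted p under 0.05 either (edgeR).

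**Figure D2:**
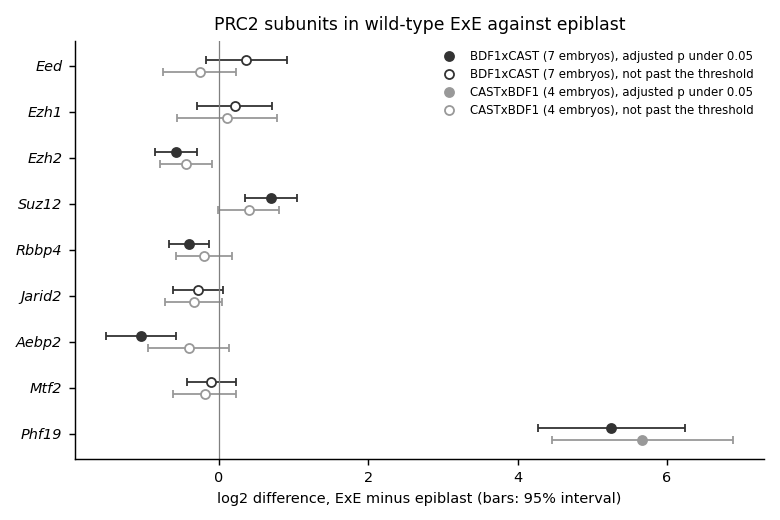
Difference in log2 level between ExE and epiblast (horizontal axis, ExE minus epiblast) for 9 PRC2 subunits in wild-type embryos of both crosses, with 95% intervals; filled points have an adjusted p under 0.05. Phf19 lies at 5.26 and 5.67 and all other subunits lie between -1.04 and 0.70.

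Genes that work with PRC2 were read from 2 lists. Of 4 tested partners outside the 10 subunits, E130012A19Rik (Epop, an elongin-binding PRC2.1 factor) was higher in ExE by 1.62 and Lcor, which encodes the PRC2.1 factor Pali1, by 1.68, and Lcorl, which encodes Pali2, was lower by 1.13, on the log2 scale; the median of the 4 was 0.90. Of 13 tested PRC1 genes, 5 were higher and 4 lower in ExE, among them Pcgf5 at 2.96 and Phc1 at -2.99, where 56.7% of all genes were called, and their median was -0.12. Of 3 tested enzymes that remove the lysine 27 methyl mark or acetylate that residue, the demethylase gene Kdm6a differed by -0.81 and the acetyltransferase gene Ep300 by -1.14 (both lower in ExE), and none was higher.

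The Eed knockout was compared with the same 7 wild-type embryos, tissue by tissue; all 4 knockouts share these controls. Eed RNA itself ran from 38.1 through a median of 174 to 205 CPM in wild-type epiblast and from 2.81 through 7.71 to 19.8 CPM in Eed knockout epiblast. In ExE it ran from 103 through 218 to 248 CPM in wild type and from 3.87 through 7.60 to 17.4 CPM in the knockout. No knockout library reached the lowest wild-type library in either tissue. The mean fell to 5.96% of wild type in epiblast (log2 -4.21 ± 0.342, edgeR adjusted p = 7.82e-08) and to 3.95% in ExE (log2 -4.79 ± 0.263, adjusted p = 1.95e-11).

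In ExE, 5 of the 8 partner subunits changed with Eed: Ezh1 and Phf19 rose, and Jarid2, Mtf2 and Suz12 fell. With Eed these were 6 of 9, where 40.8% of all genes tested were called. The median log2 difference of the 8 partners was -0.25 and that of all genes 0.02. Each of the 6 calls was made again in all 25 alternative settings.

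Ezh1, the second catalytic subunit, ran from 5.00 through 7.89 to 14.1 CPM in wild-type ExE and from 11.7 through 26.0 to 43.8 CPM in Eed knockout ExE. All but 1 of the 10 knockout libraries lay above the wild-type range. It rose by 1.42 ± 0.238 on the log2 scale, 2.67-fold (edgeR adjusted p = 8.24e-05). Ezh2 ran from 89.3 through 114 to 137 CPM in wild type and from 83.1 through 113 to 137 in the knockout, ranges that coincided almost entirely. Its log2 difference of -0.20 had a 95% interval of -0.42 to 0.02 (edgeR adjusted p = 0.158).

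Phf19 ran from 6.43 through 20.8 to 35.4 CPM in wild-type ExE and from 31.0 through 56.3 to 84.1 CPM without Eed, with 9 of 10 knockout libraries above the wild-type range. It rose by 1.33 ± 0.240 on the log2 scale, 2.52-fold (edgeR adjusted p = 0.000171). The other Polycomb-like subunit that could be tested went the opposite way. Mtf2 ran from 97.5 through 129 to 163 CPM in wild type and from 62.0 through 96.6 to 118 without Eed, with 5 of 10 libraries below the wild-type range (log2 -0.57 ± 0.131, edgeR adjusted p = 0.00145).

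Jarid2 had the clearest fall among the partners. It ran from 72.8 through 98.6 to 127 CPM in wild-type ExE and from 33.5 through 48.1 to 67.7 CPM in Eed knockout ExE. The groups did not overlap, and the log2 difference was -1.15 ± 0.143 (edgeR adjusted p = 2.67e-06). Suz12 fell less, from a range of 37.9 to 64.0 CPM with a median of 57.4 to a range of 31.3 to 52.1 CPM with a median of 42.5, and 3 of 10 libraries lay below the wild-type range (log2 -0.56 ± 0.127, adjusted p = 0.00152). Rbbp4 and Aebp2 were not called, with log2 differences of -0.14 and -0.31 (edgeR adjusted p = 0.386 and 0.302). The 4 wild-type ExE libraries of the reverse cross were not part of these tests. In them Jarid2 ran from 60.4 to 87.2 CPM, Mtf2 from 91.1 to 119 and Suz12 from 46.8 to 69.1. Ezh1 ran from 5.96 to 13.9 CPM there and Phf19 from 12.2 to 29.2. Of these only Phf19 stayed clear of the Eed knockout range.

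Marker sums moved in the same ExE libraries. The 8 ExE markers summed to 312 to 634 CPM (median 408) without Eed and 576 to 1073 CPM (median 700) in wild type, differentiated trophoblast markers to 554 to 1484 CPM (median 975) against 237 to 693 CPM (median 440), and visceral endoderm markers to 38.3 to 78.4 CPM against 12.2 to 28.6 CPM. Of the differentiated trophoblast genes, the giant cell gene Prl3d1 was at 0 in all libraries of both groups, and the spongiotrophoblast gene Tpbpa was at 0 in the wild type. Here and below, this sum held only 3 genes, and in each comparison 1 alone had enough reads to be tested. A change in it therefore cannot be read as that of a set of markers. Of all 10058 genes tested 1822 were called lower. Replication genes, a list of 13, fell in 8 cases and rose in none, with a median log2 difference of -0.35. Their part in the changes of the PRC2 subunits was not tested.

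In Eed knockout epiblast, Ezh1 rose and Aebp2 and Jarid2 fell, which with Eed made 4 of 8 subunits tested, against 35.7% of all genes. The median log2 difference of the 7 partners was -0.30 and that of all genes 0.01. Ezh1 ran from 5.87 through 8.07 to 10.2 CPM in wild type and from 7.54 through 16.2 to 21.1 CPM without Eed, and 8 of 9 knockout libraries lay above the wild-type range (log2 0.78 ± 0.229, edgeR adjusted p = 0.0114). Aebp2 ran from 47.5 through 60.3 to 83.8 CPM in wild type and from 27.9 through 42.9 to 57.3 CPM in the knockout, with 5 of 9 libraries below the wild-type range (log2 -0.58 ± 0.154, adjusted p = 0.00641). Jarid2 ran from 86.8 through 108 to 200.5 CPM in wild type and from 76.0 through 98.9 to 124 CPM in the knockout. These ranges overlapped over most of their width, and the call (log2 -0.42 ± 0.155, edgeR adjusted p = 0.0410) was made in 12 of 24 alternatives.

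Markers moved in these epiblast libraries as well. Epiblast markers summed to 3772 to 6220 CPM (median 4638) against 2902 to 4324 CPM (median 3389) in wild type, and differentiated trophoblast markers to 9.14 to 66.1 CPM against 0.839 to 11.4 CPM. Of all 9820 genes tested 1621 were called lower. Of 3 tested mesoderm markers 2 were lower, with a median log2 difference of -1.78, and 4 of 13 replication genes were lower. Their part in the changes of Ezh1, Aebp2 and Jarid2 was not tested.

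The wild-type epiblast of embryo 8 weighed on these values. Without it the Jarid2 difference was -0.29 and no longer called (edgeR adjusted p = 0.0846), whereas Ezh2 (log2 -0.38, adjusted p = 0.00558) and Mtf2 (-0.48, 0.00411) were. With it, Ezh2 (161 ± 25.4 CPM against 176 ± 24.8) and Mtf2 had log2 differences of -0.30 and -0.38 and adjusted p of 0.0688 and 0.0571, and Rbbp4 and Suz12 differed by -0.26 each (0.108 and 0.330, edgeR).

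Phf19 had too few epiblast reads for the model and was tested on its own. It ran from 0 through 2.66 to 10.7 CPM in Eed knockout epiblast, and 7 of 9 libraries lay above the highest wild-type library of 1.52 CPM. A two-sided exact permutation test over the libraries gave p = 0.00437, or 0.0175 adjusted over the 4 knockouts. The knockout mean of 3.70 CPM stayed below the lowest wild-type ExE library of 6.43 CPM.

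Whether the 2 tissues responded differently to the loss of Eed was tested as an interaction, in which 15.9% of all genes and 1 of 9 subunits were called. Jarid2 fell further in ExE than in epiblast, by -0.70 ± 0.210 on the log2 scale (edgeR adjusted p = 0.0192). The fit took the 2 tissues of an embryo as independent. No library was left out of it, so the weight of wild-type epiblast embryo 8 on this value was not tested. For Ezh1, which rose in both tissues, the ExE change exceeded the epiblast change by 0.68, which did not pass (adjusted p = 0.147), and for Phf19 the interaction was -1.37 (adjusted p = 0.188, edgeR).

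Among the further PRC2 partners, AU022751 (Ezhip, an inhibitor of PRC2) went from a mean of 0.793 CPM in wild-type ExE to 22.8 CPM without Eed (log2 4.62, edgeR adjusted p = 5.23e-07) and from 0.798 to 10.6 CPM in epiblast (log2 3.45, adjusted p = 5.87e-05). AU022751 lies on the X chromosome, and in the wild-type reverse cross its means were 9.43 CPM in ExE and 6.15 in epiblast. The low means of the controls thus did not hold in the other cross. Of the 5 partners only 4 were tested between the crosses in each tissue, with 0 called. A test of AU022751 itself between the crosses is not given here. E130012A19Rik rose in ExE by 1.22, and Lcor and Lcorl fell by 0.79 and 0.76, which left 2 of 5 partners higher and 2 lower, with a median of -0.14. In epiblast 1 of 5 rose, and Lcorl (log2 -0.94) and the Rbbp4 paralogue Rbbp7 (-1.06) fell. Of the PRC1 genes, 4 of 15 rose in ExE, namely Bcor at 1.70, Cbx8 at 1.32, Bmi1 at 1.03 and Pcgf5 at 0.81, and Pcgf6 fell, at -0.56. The median of the 15 was 0.30, and the share called was below the 40.8% of all genes. In epiblast, where 35.7% of all genes were called, 5 of 13 rose, with Bmi1 at 1.64, Pcgf2 at 1.07, Cbx7 at 0.80, Pcgf5 at 0.75 and Yaf2 at 0.50, and Rnf2 and Pcgf6 fell, at -0.66 and -0.41 on the log2 scale.

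**Figure D3:**
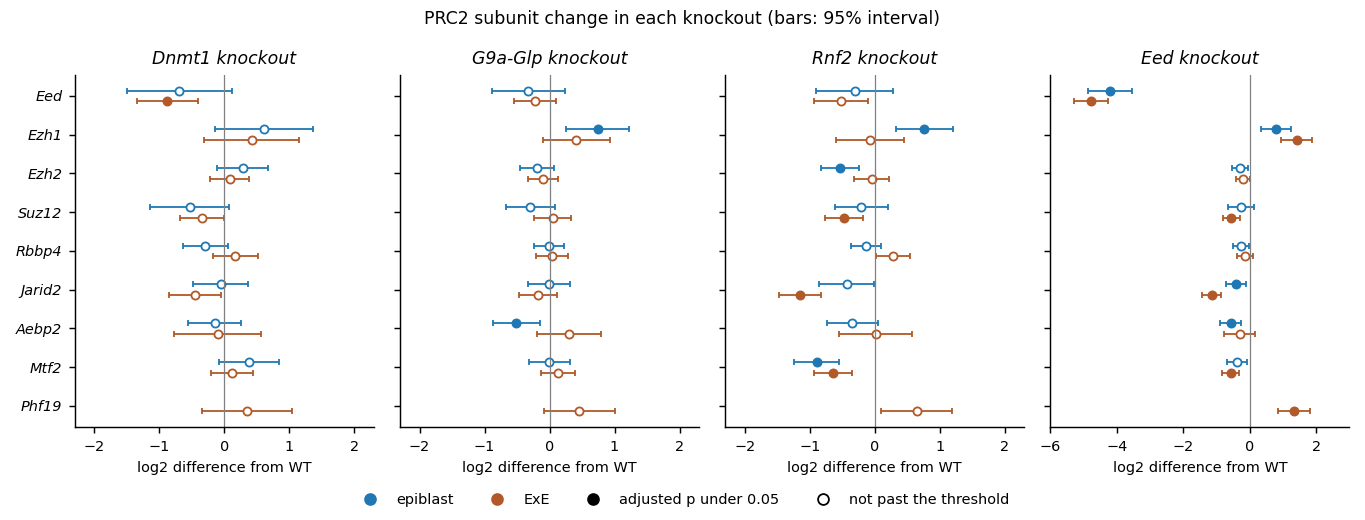
Difference in log2 level between each knockout and wild type (horizontal axes, knockout minus wild type, 1 panel per knockout; the Eed panel has a wider axis) for 9 PRC2 subunits in epiblast and ExE, with 95% intervals; filled points have an adjusted p under 0.05. Jarid2 lies near -1.15 in the ExE of both the Rnf2 and the Eed knockout, and Ezh1 lies at 0.74 to 0.78 in the epiblast of the G9a-Glp, Rnf2 and Eed knockouts; Phf19 has no epiblast point because it was too low to be fitted there.

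After targeting of Rnf2, the catalytic subunit of PRC1, the accessory subunits Jarid2 and Mtf2 were the lowest members relative to wild type in ExE, and Mtf2 in epiblast. In ExE 3 of 9 subunits were called, against 22.2% of all genes, and in epiblast 3 of 8, against 31%. The median log2 difference of the subunits was -0.07 in ExE (all genes -0.03) and -0.33 in epiblast (all genes -0.004).

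In ExE, Jarid2 had 35.3, 41.1, 52.5, 47.2 and 51.4 CPM in the 5 libraries labelled Rnf2, and 72.8 to 127 CPM (median 98.6) in wild type. The groups did not overlap, and the log2 difference of -1.15 ± 0.165 (edgeR adjusted p = 0.000205) was called in all 22 alternatives. Mtf2 had 76.7, 84.1, 75.2, 107.5 and 66.3 CPM, 4 of 5 below the lowest wild-type library of 97.5 CPM (log2 -0.64 ± 0.151, adjusted p = 0.00679). Suz12 had 42.2, 32.9, 47.6, 48.0 and 36.7 CPM, 2 of 5 below the wild-type minimum of 37.9 CPM (log2 -0.47 ± 0.147, adjusted p = 0.0303), a call made in 12 of 22 alternatives. Without the 3 ExE libraries whose Rnf2 RNA reached the second-lowest wild-type library (23.7 CPM), only the Jarid2 call remained. These 3 had 29.5, 39.5 and 62.7 CPM of Rnf2, and wild-type ExE ran from 21.4 to 65.9 CPM. Without wild-type ExE embryo 6, Eed and Rbbp4 were called as well. The share of all genes called without that library is not given here.

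Other genes moved in the same ExE libraries. Replication genes summed to 3137 to 3376 CPM, below the wild-type range of 3502 to 4713 CPM. Of the 13 tested, 5 were called lower, where 950 of all 9506 genes were. Differentiated trophoblast markers summed to 399 to 1228 CPM (median 769) against 237 to 693 CPM (median 440), with Prl3d1 at 0 in both groups and Tpbpa at 0 in wild type. Visceral endoderm markers summed to 22.9 to 49.0 CPM against 12.2 to 28.6 CPM, and ExE markers to 507 to 1091 CPM (median 570) against 576 to 1073 CPM (median 700). Their part in the changes of Jarid2, Mtf2 and Suz12 was not tested.

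Phf19 had 38.1, 43.0, 26.5, 26.4 and 26.4 CPM in these ExE libraries, 2 of them above the wild-type maximum of 35.4, and was not called (log2 0.64, edgeR adjusted p = 0.109). Ezh1 had 10.7, 7.99, 5.41, 10.6 and 8.29 CPM, all within the wild-type range of 5.00 to 14.1 (log2 -0.07, adjusted p = 0.867). Ezh2 differed by -0.05, Eed by -0.52 (adjusted p = 0.0886) and Rbbp4 by 0.28 (adjusted p = 0.136) on the log2 scale, and none of these 3 passed.

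In epiblast, Mtf2 ran from 83.1 through 133 to 174 CPM in wild type and from 61.9 through 77.2 to 85.6 CPM in the 6 libraries labelled Rnf2, 5 of them below the wild-type range (log2 -0.89 ± 0.175, edgeR adjusted p = 0.00123). Ezh1 ran from 5.87 through 8.07 to 10.2 CPM in wild type and from 10.3 through 12.5 to 17.1 CPM after targeting, so the groups just failed to overlap (log2 0.76 ± 0.223, adjusted p = 0.0161). Ezh2 ran from 126 through 181 to 206 CPM and from 91.8 through 131 to 140 CPM, with 2 of 6 libraries below the wild-type range (log2 -0.53 ± 0.151, adjusted p = 0.0136). In the 4 wild-type epiblast libraries of the reverse cross, Ezh1 ran from 6.52 to 11.9 CPM, which overlaps the libraries labelled Rnf2. Mtf2 ran from 83.5 to 153 CPM there and Ezh2 from 151 to 186 CPM. The Ezh1 and Ezh2 calls were lost without the filter on low counts. That of Ezh1 was also lost when all libraries compared, wild type included, were thinned to the smallest total of 1311863 reads. That total lies below the wild-type median of 2477150 reads, so this setting also thinned the controls.

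Eed ran from 63.1 through 141 to 161 CPM in these libraries and was not called (log2 -0.31, adjusted p = 0.466), but it was without wild-type epiblast embryo 8 (-0.50, 0.0432, edgeR). Embryo 6 stood apart in this epiblast group, with the highest Jarid2 (166 CPM, others 61.2 to 83.5), the highest Aebp2 and the lowest Eed. Jarid2 (log2 -0.43, adjusted p = 0.134) and Aebp2 (-0.34, 0.203) were not called with it and were called without it (edgeR). Phf19 ran from 0.308 through 2.11 to 11.1 CPM, with 4 of 6 libraries above the wild-type maximum, and did not pass (exact permutation p = 0.0396, adjusted over 4 knockouts 0.0793). Epiblast markers summed to 1747 to 4104 CPM here (median 2802) and 2902 to 4324 CPM in wild type (median 3389), and differentiated trophoblast markers to 10.45 to 102 CPM against 0.839 to 11.4 CPM. Of all 10134 genes tested 1317 were called lower. Of 3 tested mesoderm markers 1 was lower, and of 13 replication genes 2. The part of these in the differences was not tested.

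No subunit was called in the test of whether the Rnf2 effect differed between tissues, in which 6.82% of all genes were; 4 of 9 had an unadjusted p under 0.05 (edgeR). The largest of these interactions were -0.85 for Ezh1 (adjusted p = 0.141), -0.73 for Jarid2 (0.120) and 0.48 for Ezh2 (0.173). Against the same low controls, AU022751 rose after targeting of Rnf2 in epiblast (log2 4.24, edgeR adjusted p = 6.38e-05) and ExE (4.20, 4.80e-06). E130012A19Rik rose by 1.20 and 1.10, so 2 of 5 partners rose in each tissue, and in epiblast Lcorl fell (-0.83). Of 14 PRC1 genes tested in epiblast, where 31% of all genes were called, 5 rose and 2 fell, and 1 of those that fell was the targeted Rnf2 itself (log2 -0.81). In ExE 3 of 15 rose, namely Bmi1 (1.13), Cbx8 (1.60) and Bcor (1.08), a share near the 22.2% of all genes called.

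In G9a-Glp knockout epiblast, Ezh1 was higher and Aebp2 lower, 2 of 8 subunits where 34.6% of all genes were called. Ezh1 ran from 7.15 through 14.3 to 19.2 CPM, with 5 of 6 libraries above the wild-type maximum of 10.2 (log2 0.74 ± 0.247, edgeR adjusted p = 0.0279). Aebp2 ran from 30.1 through 46.2 to 62.9 CPM, with 3 of 6 below the wild-type minimum of 47.5 (log2 -0.51 ± 0.185, adjusted p = 0.0403). Without the 2 epiblast libraries in which Ehmt1 RNA reached the second-lowest wild-type library, no subunit was called. Ehmt2 was too low in epiblast to be read in the same way. Without wild-type embryo 8, Eed (log2 -0.50, edgeR adjusted p = 0.0175), Ezh2 (-0.27, 0.0375) and Suz12 (-0.40, 0.0440) were called beside Ezh1 and Aebp2. The share of all genes called in that fit is not given here. Epiblast markers summed to 4008 to 6669 CPM (median 5106) in these libraries against 2902 to 4324 CPM (median 3389) in wild type, and 3 of 4 mesoderm markers were lower, with a median log2 difference of -2.39; their part in the Ezh1 and Aebp2 values was not tested. In G9a-Glp ExE, where 15.2% of all genes were called, 0 of 9 subunits were, and none had an unadjusted p under 0.05 (edgeR). The interaction between tissues was called in 0 of 9 (1 at an unadjusted p under 0.05) and in 6.83% of all genes.

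In Dnmt1 knockout epiblast 0 of 8 subunits were called, none of them at an unadjusted p under 0.05 either, against 14.1% of all genes (edgeR). Ezh2 had 295, 237 and 223 CPM there and Mtf2 201, 241 and 174.5, and in each case all 3 values reached the wild-type maximum (206 and 173.9 CPM) while the fitted log2 differences were 0.28 and 0.38 (adjusted p = 0.317 for Mtf2). Without wild-type epiblast embryo 8, Eed was called in this tissue (log2 -0.86, edgeR adjusted p = 0.00647), against -0.69 and 0.294 with it. The Dnmt1 libraries are those in which scaling mattered most: library totals alone, without TMM, moved the median of all genes by 0.21 in epiblast and 0.25 in ExE, and raised the share of calls that were increases from 49.2% to 71.3% in epiblast and from 46.2% to 72.5% in ExE. In ExE 1 of 9 subunits was called, against 18.5% of all genes. Eed had 127, 136 and 128 CPM, within the wild-type range of 103 to 248 CPM but below 6 of its 7 libraries (log2 -0.88 ± 0.237, edgeR adjusted p = 0.0203); the call was lost without any 1 of the 3 knockout libraries and on library totals alone. Differentiated trophoblast markers summed to 735 to 1127 CPM in these libraries, all above the wild-type range of 237 to 693 CPM, with Prl3d1 and Tpbpa at 0 in both groups, and the 1 mesoderm marker tested was lower (log2 -1.68); their part in the Eed value was not tested. The interaction was called in 0 of 9 subunits and in 0.247% of genes, and no subunit had an unadjusted p under 0.05.

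AU022751, again against the low controls of 1 cross, rose in Dnmt1 knockout epiblast (log2 4.17, edgeR adjusted p = 0.00137) and ExE (2.81, 0.00124). E130012A19Rik rose in ExE (1.03, 0.0159). In the G9a-Glp knockout Lcorl fell in epiblast (-0.84) and no partner was called in ExE. Of the PRC1 genes 2 rose and 3 fell of 13 in G9a-Glp epiblast (34.6% of all genes called), and 2 of 15 rose in ExE (15.2% of all genes).

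The reads split by allele, so each subunit's balance between the BDF1 and the CAST copy was compared in both directions of the wild-type cross. A difference between strains was called for 6 of 8 subunits in epiblast, against 42.9% of genes, and for 5 of 9 in ExE, against 49.1%. Of these 11 calls 10 favoured BDF1, a side that 2950 of 3632 called genes in epiblast and 3372 of 4252 in ExE shared. The median log2 ratio of CAST to BDF1 reads over all genes tested was itself -0.22 in each tissue. Eed had a log2 ratio of CAST to BDF1 reads of -0.95 in epiblast and -0.83 in ExE (edgeR adjusted p = 2.02e-08 and 6.39e-10). Ezh2 stood at -0.46 and -0.67, Suz12 at -0.68 and -0.76 and Aebp2 at -0.56 and -0.74 in the 2 tissues. In epiblast, Mtf2 leaned to BDF1 (-0.31, not far from the median of all genes) and Jarid2 to CAST (0.40, adjusted p = 0.000334). In ExE, Ezh1 was called at -0.71 (adjusted p = 0.0400), but not by limma and not without reverse-cross embryo 2 or 4. A difference by parent of origin was called for 0 of 8 subunits in epiblast and 0 of 9 in ExE, against 0.319% and 0.844% of genes, and no subunit had an unadjusted p under 0.05 (edgeR).

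The allelic balance of the partners was not called as changed in any knockout. Counts were 0 of 7 and 0 of 9 subunits for Dnmt1 in epiblast and ExE (0.908% and 0.856% of all genes), 0 of 8 and 0 of 9 for G9a-Glp (1.79% and 1.1%), and 0 of 8 and 0 of 9 for Rnf2 (0.696% and 0.922%), and 1 of these, in Rnf2 ExE, had an unadjusted p under 0.05 (edgeR). In the Eed knockout 1 of 8 was called in epiblast and 1 of 9 in ExE, against 1.06% and 2.65% of genes, and in both tissues it was Eed.

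The Eed RNA that was left in the knockout came mostly from the CAST copy, the reverse of the wild type. Pooled over libraries, CAST made up 34.3% of Eed reads in wild-type epiblast and 67.4% in the knockout (147 CAST and 71 BDF1 reads), and 37.2% and 69.1% in ExE (168 and 75 reads). By library, the CAST share ran from 48% through 69.2% to 91.5% in knockout epiblast and from 44.4% through 63.1% to 83.0% in ExE. It lay above the highest wild-type share in 7 of 9 epiblast libraries and in 10 of 10 ExE libraries; the highest wild-type epiblast share, 56%, was that of embryo 8, with 50 Eed reads. The log2 shift in the ratio of CAST to BDF1 was 1.92 ± 0.323 in epiblast (edgeR adjusted p = 0.000911, not called by limma) and 1.84 ± 0.221 in ExE (adjusted p = 5.02e-06). In absolute terms the CAST copy was left at 11.9% of its wild-type CPM in epiblast and 7.24% in ExE, and the BDF1 copy at 2.84% and 2.0%.

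**Figure D4:**
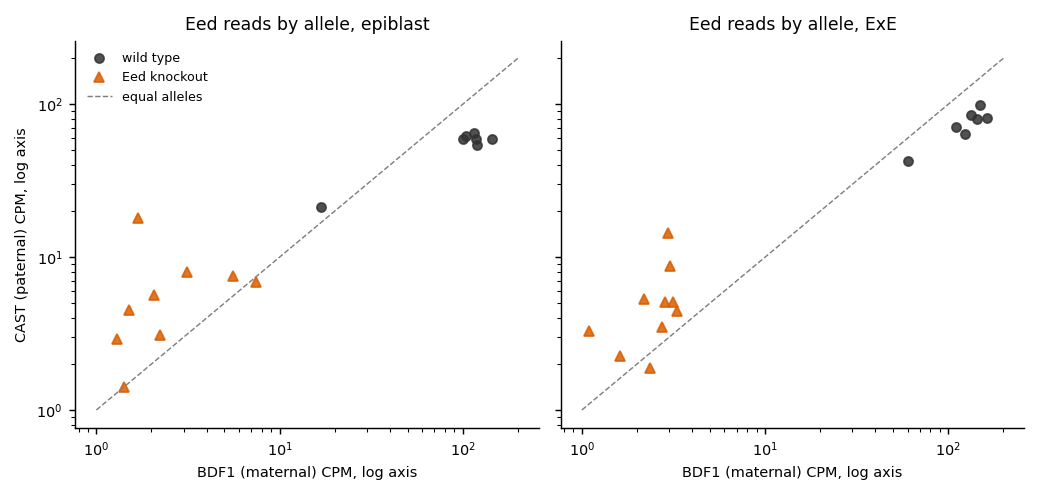
Eed CPM from the BDF1 (maternal, horizontal log axis) and the CAST copy (paternal, vertical log axis) in each library of the wild type and the Eed knockout, epiblast on the left and ExE on the right; the dashed line marks equal alleles. Wild-type libraries lie below the line except epiblast embryo 8, and 16 of the 19 knockout libraries lie above it, with 1 on the line.

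The CAST share of the remaining Eed reads was correlated between the 2 tissues of an embryo, although single-library shares rest on 4 to 53 reads. Over the 9 embryos with both libraries, paired by the embryo tag of the labels, the CAST share of Eed reads in epiblast and in ExE had a Pearson r of 0.813 (exact permutation p = 0.00738, adjusted over 2 relations 0.0148) and a Spearman rho of 0.783 (p = 0.0172, adjusted 0.0345). Without embryos 5 and 6, the 2 farthest from the median, r was 0.700 (n = 7), a value that was not tested. The title numbers of 3 of the 9 pairs disagree with their embryo tags. Over the 6 pairs in which both agree r was 0.883 (exact permutation p = 0.0111), and pairing by title number, which joins libraries of unlike sex in 2 of 9 pairs, gave r = 0.858 (exact permutation p = 0.00315). The level of Eed RNA left gave r = 0.591 (exact permutation p = 0.126) and rho = 0.367 (p = 0.336), and r = 0.129 without the same 2 embryos, so for the level no relation could be shown. The guides were designed to avoid CAST polymorphisms, per the labels, and no edited allele was read here.

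Across the 12 groups, each taken as its mean log2 CPM, Ezh2 had the same course as Aebp2 (r = 0.820) and Jarid2 (r = 0.710) and the opposite course to Phf19 (r = -0.820), and Aebp2 ran opposite to Phf19 (r = -0.874). Eed and Ezh1 had r = -0.738, which includes the 2 Eed knockout groups. The genes most like Ezh2 among 13574 were Zscan12 (r = 0.952), Naa15 (0.951) and Prpf38b (0.946), and those most like Ezh1 were Pgap3 (0.872), Isg20 (0.863) and Ifitm10 (0.859). These coefficients describe 12 group means that share libraries, tissue and depth, and carry no test.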

How the data were processed

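RNA was measured in 72 libraries by SMART-Seq v4 and Nextera XT. The authors deposited, per the file headers, 1 table with a whole-number read count over BDF1 and CAST polymorphisms, an allelic ratio and an allelic score for each gene and library. The submitters' processing notes name STAR 2.5.0, HTSeq and mm10. Groups came from the labels. The 10 subunits and the gene lists were chosen with earlier results of these data known; all 10 subunits and list genes past the threshold could be named, and for Ezh1 and Ezh2 the 3 genes of most similar course. Counts were scaled by TMM, filtered with filterByExpr and tested with edgeR 4.0.16 (R 4.3.3), with Benjamini-Hochberg adjustment at 0.05, using only the groups compared. Whole allele reads were recovered from the deposited ratios and scores for 99.5% of entries and all 620 of the subunits; shares needed 10 reads in 3 libraries of each group. Alternatives used limma 3.58.1, DESeq2 1.42.0, other scalings, filters and left-out libraries, and the scripts were tested on simulated data. Epiblast and ExE libraries were paired by the embryo tag of the labels; title numbers disagree with it for 3 of 9 Eed pairs, and the sexes given agree within every tag pair of that group. In the wild type, where they agree, deviations correlated at 0.0238 to 0.414 in the 7 BDF1 by CAST pairs and at 0.037 to 0.33 in the 4 reverse pairs. Intervals and limits for counts of 0 cover counting error only, since reads had no molecular identifiers. A methylation sample of the series was not analysed here.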

Additional observations from a re-analysis of the deposited data

Results flagged for a closer look

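Within groups of 4 to 10 libraries, 12 of 88 sets of subunit values had 1 library far from the rest. The rule flags about 5% of sets of independent, normally distributed values. These sets are read counts that share libraries, so an excess over that share cannot be read from them. In the wild-type BDF1 by CAST epiblast, embryo 8 had the lowest Eed, at 38.11 CPM where the others had 160.5 to 204.9, and the highest Jarid2, at 200.5 CPM (others 86.85 to 135.7). In Rnf2 epiblast, embryo 6 had the lowest Eed at 63.07 CPM (others 135.7 to 161.1), the highest Jarid2 at 166.3 CPM (others 61.22 to 83.48) and the highest Aebp2 at 84.33 CPM (others 35.49 to 53.01). Both libraries thus held little Eed beside much Jarid2. Embryo 8 of the same group had the highest Phf19, at 11.08 CPM against 0.3077 to 3.424 in the others.

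In wild-type ExE, embryo 6 stood out in Rbbp4 at 159.7 CPM (others 95.78 to 120.5) and in Aebp2 at 59.36 CPM (others 15.42 to 31.09). Single values stood apart for Eed in Rnf2 ExE embryo 4 (90.61 CPM, others 153.1 to 169.4), for Ezh2 in Eed knockout epiblast embryo 10 (223 CPM, others 139.9 to 169.4), for Mtf2 in G9a-Glp epiblast embryo 2 (180.8 CPM, others 126.8 to 145.8) and for Aebp2 in G9a-Glp ExE embryo 2 (62.86 CPM, others 27.35 to 43.65).

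The change of Jarid2 after loss of Eed differed between the tissues, with an interaction of -0.70 on the log2 scale (edgeR adjusted p = 0.0192). All 7 BDF1 by CAST wild-type and all 10 Eed knockout ExE libraries kept to separate ranges, whereas the epiblast ranges overlapped.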

How the results depend on the processing

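Of 369 recomputed counts of called subunits 324 stayed within 1.5 times the count in the text, and of 1038 recomputed single-subunit values 933 kept their side of the threshold, 69 lost a call, 36 gained one and 0 changed sign. Each setting or left-out library also changes how many of all genes are called, so the counts below describe stability alone. With all 12 groups in 1 fit, the called subunits numbered 2 in the reverse-cross lineage comparison and 0 in Dnmt1 ExE. They numbered 5 in Rnf2 epiblast, 8 in Eed epiblast and 1 in the Rnf2 interaction (Ezh2). That fit also tested Phf19 in epiblast, which was among the 5 and the 8, and Suz12 was not among the 8. DESeq2 called 2 in the reverse-cross comparison and 1 in the Rnf2 interaction (Rbbp4). Of all genes it called 4551 and 1036 there, against 4393 and 774 in the main fits. Without TMM the counts were 0 in Dnmt1 ExE and 1 in G9a-Glp epiblast, where 2057 and 3283 of all genes were called, against 1804 and 3305 with it. Without the low-count filter G9a-Glp epiblast had 0, and with at least 50 reads 0 there and 2 in Eed epiblast. With sex as a covariate there were 2 in the reverse-cross comparison and 2 in Dnmt1 ExE (Eed and Jarid2). A setting chosen after seeing the data left out the libraries whose targeted mRNA reached the second-lowest wild-type library. Counts were then 0 in Dnmt1 ExE, 0 in G9a-Glp epiblast and 1 in Rnf2 ExE.

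With the embryo as a replicate block, the reverse-cross comparison had 2 called subunits. Knockout and wild-type libraries share only a number, whose deviations correlated from -0.332 to 0.332; a replicate block over shared numbers, which keeps fewer libraries, gave 1 in G9a-Glp epiblast, 1 in G9a-Glp ExE, 0 in Rnf2 epiblast, 1 in Rnf2 ExE and 1 in Eed epiblast. For the Eed allele shift, limma gave 0 in epiblast, limma with a replicate block 0 in both tissues, and at least 50 reads 0 in both, because too few Eed reads remained to be tested. The correlation of the Eed allele share between tissues was 0.883 and 0.858 under the other readings of the pairing, chosen after seeing the data. The limma block could not be fitted for the strain comparison.

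With each library left out in turn, counts ran from 1 to 2 in the reverse-cross comparison, from 0 to 1 in Dnmt1 epiblast and in Dnmt1 ExE, from 0 to 5 in G9a-Glp epiblast, from 3 to 5 in Rnf2 epiblast and from 2 to 5 in Rnf2 ExE. Wild-type epiblast embryo 8 decided the highest counts in Dnmt1 epiblast (Eed, -0.86, edgeR adjusted p = 0.00647) and G9a-Glp epiblast, Rnf2 epiblast embryo 6 that in Rnf2 epiblast, and wild-type ExE embryo 6 that in Rnf2 ExE. Except where a value or the setting itself shows the cause, the cause was not tested. Depth limits Phf1, Phf19 in epiblast and Ezh1 most, with the fewest reads per library.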
